A study of Mus musculus with 6 samples.

Results

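The genes of blood clotting, the kinin system and clot dissolution were followed in mouse liver in which an active form of IRF3 had been switched on in hepatocytes. They were taken from a list of 36 genes by matching the Ensembl identifiers of a table of 20894 gene rows to mouse symbols in GENCODE M21, which 20860 of the rows matched. The list covers vitamin K-dependent proteins, the vitamin K cycle, the contact and kinin system, large cofactors, fibrinogen and factor XIII, endothelial anticoagulants and fibrinolysis. Of the 36 genes 35 had a row, and the expression of Plaur was not analysed here. All mice carried the Irf3LSL-2D allele, from which Cre is meant to release a constitutively active IRF3, a transcription factor of antiviral defence. The IRF3-2D group (n = 3 liver samples) had been injected with AAV8-TBG-Cre, a viral vector whose TBG promoter is active in hepatocytes. The Ctrl group (n = 3) had received AAV8-TBG-GFP, so an effect of Cre or GFP as such cannot be told apart from that of the allele. Both groups were given ethanol intraperitoneally at 3 g/kg body weight, and liver was collected 2 h later, and no sample without ethanol was analysed here. The sources used here give no sex, age or background strain.

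Clotting runs as a cascade of proteases that circulate as inactive zymogens, most of them made by hepatocytes, and ends with thrombin cutting fibrinogen into fibrin. The vitamin K-dependent proteins need a carboxylation step in the endoplasmic reticulum before secretion. The contact system links factor XII, prekallikrein and kininogen to the release of bradykinin, and plasminogen, once activated, dissolves fibrin. Liver is also the source of most inhibitors of these proteases, while von Willebrand factor, factor VIII, thrombomodulin and tissue plasminogen activator are made mainly by endothelial cells.

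The libraries held 12054096 to 13606973 estimated counts in IRF3-2D and 13940893 to 14830629 in Ctrl. Irf3 itself, which checks the labels, had 1816, 1569 and 2084 counts in IRF3-2D liver, against 521, 552 and 772 in Ctrl liver, and transcripts of the allele and of the native gene cannot be told apart in this row. The composition of the libraries differed between the groups. Alb, the albumin gene, stood at 46220 to 53510 CPM (a count relative to library size, scaled by the trimmed mean of M values, TMM) in IRF3-2D and at 99840 to 144200 CPM in Ctrl, and the TMM factors were 1.12 to 1.23 in IRF3-2D and 0.822 to 0.879 in Ctrl. With library totals alone, the median log2 fold change of all 10802 tested genes was 0.49, against 0.034 with TMM, so each call below is also given on that scale where it ends or turns.

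Several rows may not hold the whole output of their gene. F2, which encodes prothrombin, a major product of hepatocytes, had 0, 4 and 10 counts in IRF3-2D and 0, 9 and 9 in Ctrl libraries. F12, which encodes factor XII, another hepatocyte product, had 20, 2 and 6 counts in IRF3-2D and 5, 6 and 5 in Ctrl. Fga had 1402, 1271 and 1288 counts in IRF3-2D and 1704, 1029 and 1249 in Ctrl, while Fgb had 82489, 89357 and 73083 in IRF3-2D and 101610, 78526 and 75296 in Ctrl, although the alpha and beta chains are joined in equal numbers in fibrinogen. Per kilobase of transcript this is a mean level of 33.7 CPM for Fga and 1420 CPM for Fgb in IRF3-2D, and of 41.7 and 1820 CPM in Ctrl. F2 has 3 annotated transcripts, and F12 and Fga have 2 each. Whether a row holds only some of a gene's transcripts was not tested. The 6 members with 1 annotated transcript, F5, F7, F9, Fgb, Klkb1 and Thbd, are free of a choice among transcripts of their own gene, and 2 of them were called lower and none higher with TMM (13.1% and 13.2% of all tested genes), against 2 lower (F7 and Klkb1) and 2 higher (F9 and Thbd) on library totals alone (5.29% and 41.7%).

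Of the 35 rows 29 passed the filter on low counts and were tested. F2, F12, F13a1 and Adamts13 did not pass it, and F3 and Procr were listed at 0 in all 6 libraries, where 3 counts would be 0.194 to 0.252 CPM. F3 encodes tissue factor, which starts clotting outside the vessel, and Procr the endothelial protein C receptor. Adamts13, the protease that trims von Willebrand factor, had 0, 0 and 6 counts in IRF3-2D and 0, 8 and 0 in Ctrl.

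Among the 29 tested genes more were called lower than higher in IRF3-2D liver with TMM scaling, and on library totals alone more were called higher than lower. At an edgeR quasi-likelihood adjusted p under 0.05, 10 were called lower and 1 higher, and 18 were not called. Of all tested genes 13.1% were called lower and 13.2% higher, 26.3% in all, against 34.5% and 3.45% of the members. The members' median log2 fold change was -0.25. Scaled by totals only, 2 members were called lower and 8 higher, against 5.29% and 41.7% of all tested genes, and their median became 0.21. Relative to the median of all genes the members' median was -0.28 with either scaling. That match is no separate result, since a change of scaling shifts all genes by nearly the same amount. The 2 members called lower on both scales were Klkb1 and F7, and Plgrkt was called higher on both. In CPM with TMM, values of the groups did not overlap for 16 members, 14 of them lower (21.2% of all tested genes) and 2 of them higher (23.7%) in IRF3-2D. Overlap depends on the scaling and was not counted on library totals alone.

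**Figure D1:**
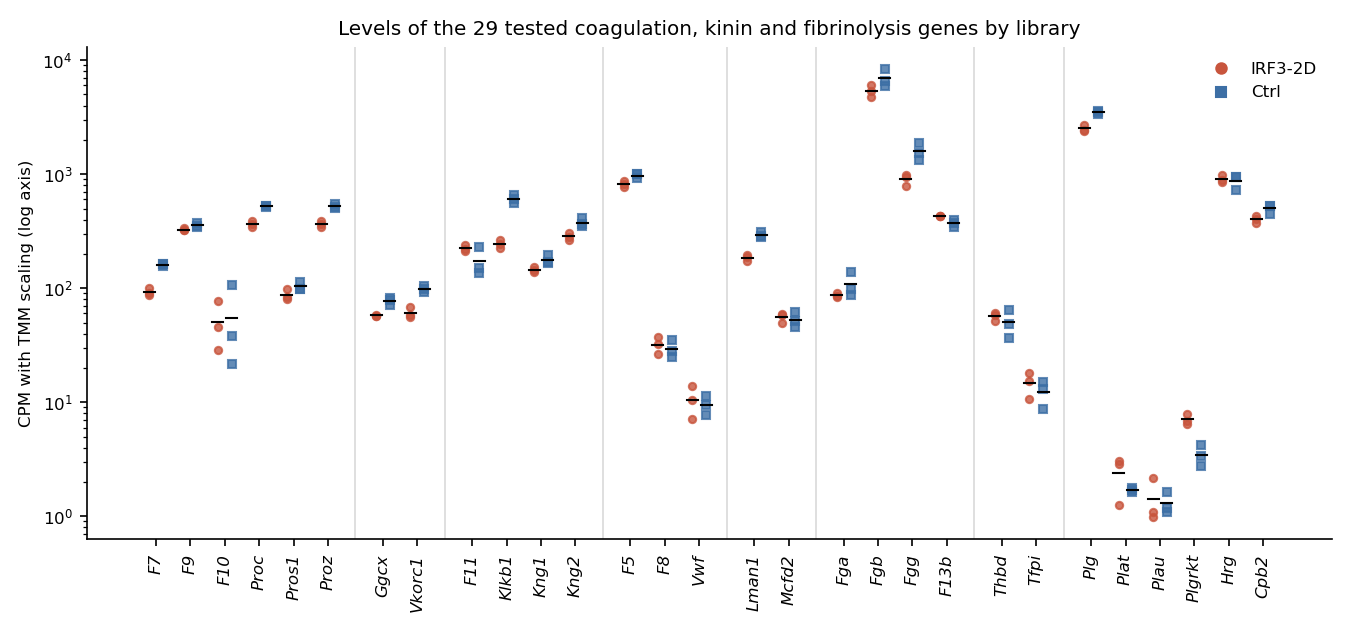
CPM with TMM scaling on a log axis for the 29 tested genes, ordered by role with grey lines between role groups. Circles are the 3 IRF3-2D and squares the 3 Ctrl libraries, and black bars are means. Klkb1 shows the widest gap, with IRF3-2D at 225.9 to 267.1 CPM and Ctrl at 559.3 to 659.6 CPM.

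**Figure D2:**
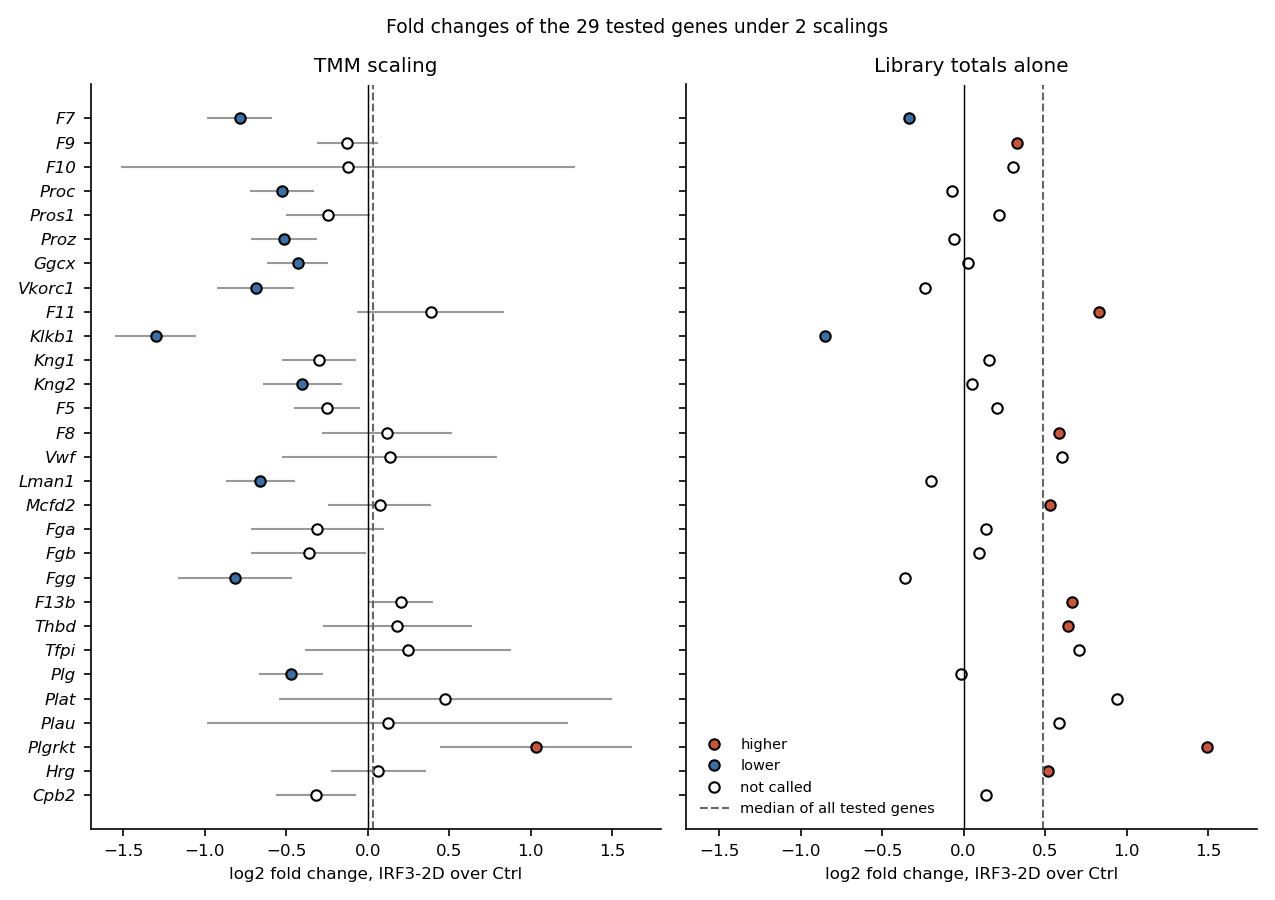
Log2 fold changes of IRF3-2D over Ctrl with TMM scaling (left, with 95% intervals) and with library totals alone (right). Filled circles passed the adjusted p of 0.05, and the dashed line is the median of all tested genes, 0.034 on the left and 0.49 on the right. Klkb1 and F7 are called lower in both panels, while 8 genes are called higher on the right, against 1 on the left.

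The vitamin K-dependent proteins include the proteases of the cascade and the anticoagulants protein C, protein S and protein Z. Of the 7 genes 6 were tested. With TMM 3 were called lower (F7, Proc and Proz) and none higher (13.1% and 13.2% of all tested genes). Of these 3 only F7 kept its call on library totals alone (5.29% of all tested genes lower), where F9 was called higher (41.7%). F7 encodes factor VII, the partner of tissue factor (ENSMUSG00000031443, on the plus strand of chromosome 8 at 13026034 to 13035809; all gene positions are those of GENCODE M21, build GRCm38). It had 91.4, 87.2 and 101.2 CPM in IRF3-2D, against 162.1, 162.3 and 157.9 CPM in Ctrl. All 3 IRF3-2D libraries lay below all 3 Ctrl libraries, and the log2 fold change was -0.79 (SE 0.085, edgeR adjusted p = 0.000924). F7 stayed lower with library totals alone (log2 fold change -0.33, edgeR adjusted p = 0.0119).

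F10, which encodes factor X, and Proz, which encodes protein Z, lie downstream of F7 on the same strand of chromosome 8. F7 and F10 are 1498 bases apart. Proz (chromosome 8, 13060914 to 13076026) stood at 367.7, 344.5 and 391.4 CPM in IRF3-2D and at 507.1, 547.5 and 519.6 CPM in Ctrl. The groups did not overlap, and the log2 fold change was -0.51 (SE 0.086, edgeR adjusted p = 0.0055), a call that ended with library totals alone (log2 fold change -0.060). F10 varied widely within each group, at 77.6, 28.8 and 46.0 CPM in IRF3-2D and 105.7, 21.8 and 38.1 CPM in Ctrl. Its log2 fold change of -0.12 had a 95% interval of -1.51 to 1.27, and it became 0.76 without Ctrl replicate 1 and 0.16 without IRF3-2D replicate 2, with no call in any fit. F10 has 5 annotated transcripts.

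Proc, which encodes protein C, the anticoagulant protease that inactivates factors V and VIII, had 362.0, 342.8 and 390.0 CPM in IRF3-2D, against 526.3, 519.3 and 528.3 CPM in Ctrl. Its log2 fold change was -0.52 (SE 0.083, edgeR adjusted p = 0.00437), and -0.073 with library totals alone, where the call ended. Pros1, which encodes its cofactor protein S, had 84.5, 99.3 and 80.2 CPM in IRF3-2D and 114.0, 98.9 and 99.3 CPM in Ctrl, and the groups overlapped (log2 fold change -0.24, edgeR adjusted p = 0.153). F9 encodes factor IX, the protease missing in haemophilia B (chromosome X, 59999464 to 60030759, plus strand). Its values of 335.8, 321.2 and 324.0 CPM in IRF3-2D lay just below 348.5, 376.3 and 345.6 CPM in Ctrl, with a log2 fold change of -0.13 (95% interval -0.31 to 0.061, edgeR adjusted p = 0.289) and of 0.33 with library totals alone (edgeR adjusted p = 0.0126).

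The count of 1 gene over that of another within a library does not depend on scaling. The ratios given in the text were chosen after the values were seen and were not tested. F9 over F7 was 3.67, 3.68 and 3.20 in IRF3-2D libraries, against 2.15, 2.32 and 2.19 in Ctrl libraries. F7 over Proz was 0.249, 0.253 and 0.259 in IRF3-2D and 0.320, 0.296 and 0.304 in Ctrl. The groups overlapped in neither ratio.

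Both genes of the vitamin K cycle were called lower with TMM (13.1% of all tested genes). With library totals alone neither was (5.29% of all tested genes), Ggcx turning to 0.024 on the log2 scale. Ggcx encodes the carboxylase that modifies the vitamin K-dependent proteins. It had 57.3, 57.0 and 58.6 CPM in IRF3-2D and 82.5, 78.5 and 71.8 CPM in Ctrl, a log2 fold change of -0.43 (SE 0.079, edgeR adjusted p = 0.00778). Vkorc1 encodes the vitamin K epoxide reductase, the target of warfarin. It had 58.5, 56.4 and 68.8 CPM in IRF3-2D and 93.5, 98.5 and 103.9 CPM in Ctrl, a log2 fold change of -0.69 (SE 0.099, edgeR adjusted p = 0.00301), and -0.24 with library totals alone. Of the 31-base words of Vkorc1 46.0% also occur in the overlapping gene Gm21974, which was not analysed here, so the placement of its reads is uncertain. Vkorc1l1, a paralogue of Vkorc1 from the list of related genes, had 46.8, 60.4 and 73.9 CPM in IRF3-2D and 74.7, 102.5 and 102.1 CPM in Ctrl, and missed the threshold (log2 fold change -0.62, edgeR adjusted p = 0.0514). It was called lower with DESeq2 (adjusted p = 0.00773), limma-voom (0.0466), RLE scaling (0.0471), a mean count of at least 50 (0.038) and the replicate block (0.0124), and also without Ctrl replicate 1 (0.0319) or IRF3-2D replicate 3 (0.0291). On library totals alone its log2 fold change was -0.17 and not called.

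Of the 5 genes of the contact and kinin system 4 were tested. With TMM Klkb1 and Kng2 were called lower (13.1% of all tested genes), and Kng1 and F11 were not called. On library totals alone Klkb1 was still lower (5.29% of all tested genes), Kng2 was not called and F11 was called higher (41.7%). Klkb1 encodes plasma prekallikrein (ENSMUSG00000109764, chromosome 8, 45266689 to 45294859, minus strand), and its neighbour and paralogue F11 encodes factor XI (ENSMUSG00000031645, chromosome 8, 45241174 to 45262031, minus strand). Klkb1 had 245.7, 225.9 and 267.1 CPM in IRF3-2D, against 659.6, 600.9 and 559.3 CPM in Ctrl. Every IRF3-2D value was below every Ctrl value by a wide gap, and the log2 fold change of -1.30 (SE 0.10, edgeR adjusted p = 0.000272) was the most negative among the tested members. It was -0.85 with library totals alone (edgeR adjusted p = 0.000705), and between -1.37 and -1.24 when any 1 library was left out. Of the 31-base words of Klkb1 43.2% also occur in other genes, nearly all of them in Gm45753, which overlaps it on the same strand and was not analysed here. The placement of Klkb1 reads is therefore uncertain, and so is its ratio to F11.

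F11 had 222.2, 211.5 and 240.3 CPM in IRF3-2D and 228.3, 151.2 and 136.4 CPM in Ctrl. The groups overlapped through Ctrl replicate 1, and the log2 fold change of 0.39 (95% interval -0.066 to 0.84) was not called (edgeR adjusted p = 0.186). Without Ctrl replicate 1 it was 0.64 and called higher (edgeR adjusted p = 0.00761), and it was called with library totals alone (log2 fold change 0.83, edgeR adjusted p = 0.0122). Klkb1 over F11 was 1.11, 1.07 and 1.11 in the IRF3-2D libraries and 2.89, 3.97 and 4.10 in the Ctrl libraries. The mean ratio was 1.10 ± 0.0236 in IRF3-2D and 3.65 ± 0.666 in Ctrl (SD, n = 3 each), with no overlap between the groups. None of the words of F11 is shared with another gene.

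The 250 bases before the annotated starts of Klkb1 and F11 are shown because these paralogues lie side by side and their count ratio did not overlap between the groups. They are from RefSeq on GRCm38.p6, written 5' to 3' on the gene's strand, with capitals for a match to the C/EBP motif TTGCNNAA on either strand. C/EBP factors drive many hepatocyte genes. The Klkb1 window is chr8:45294836-45295085, minus strand, and the F11 window is chr8:45262032-45262281, minus strand.
Klkb1: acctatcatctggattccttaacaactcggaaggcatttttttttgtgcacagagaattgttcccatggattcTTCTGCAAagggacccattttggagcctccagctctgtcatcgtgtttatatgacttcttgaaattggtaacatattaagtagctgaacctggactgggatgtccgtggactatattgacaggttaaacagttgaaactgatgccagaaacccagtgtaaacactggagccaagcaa
F11: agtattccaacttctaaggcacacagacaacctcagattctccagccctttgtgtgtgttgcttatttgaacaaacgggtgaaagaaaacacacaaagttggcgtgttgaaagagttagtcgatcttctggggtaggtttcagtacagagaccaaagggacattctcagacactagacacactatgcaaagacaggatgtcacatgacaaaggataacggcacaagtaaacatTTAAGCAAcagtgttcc
Each window holds 1 match, 177 bases before the start in Klkb1 and 17 bases before it in F11, counted from the match's 5' end.

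Kininogens are the proteins from which kallikrein releases bradykinin. Kng2 had 307.9, 283.0 and 262.2 CPM in IRF3-2D and 411.0, 351.7 and 362.9 CPM in Ctrl, a log2 fold change of -0.40 (SE 0.10, edgeR adjusted p = 0.0273). Its call ended when any 1 of Ctrl replicates 1 and 3 and IRF3-2D replicates 2 and 3 was left out (log2 fold change -0.43 to -0.33), and its sign turned with library totals alone (0.053). Kng1 had 153.1, 143.3 and 137.4 CPM in IRF3-2D and 196.0, 170.2 and 166.6 CPM in Ctrl, a log2 fold change of -0.30 that missed the threshold (edgeR adjusted p = 0.0608). It was called lower with DESeq2 (adjusted p = 0.00934), with limma-voom (0.0495) and with RLE scaling in edgeR (0.0457). The paralogues share 26.5% of the words of Kng1 and 30.6% of those of Kng2, so how their reads were divided is uncertain, and Kng1 over Kng2 was 0.497, 0.507 and 0.524 in IRF3-2D against 0.477, 0.484 and 0.459 in Ctrl.

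**Figure D3:**
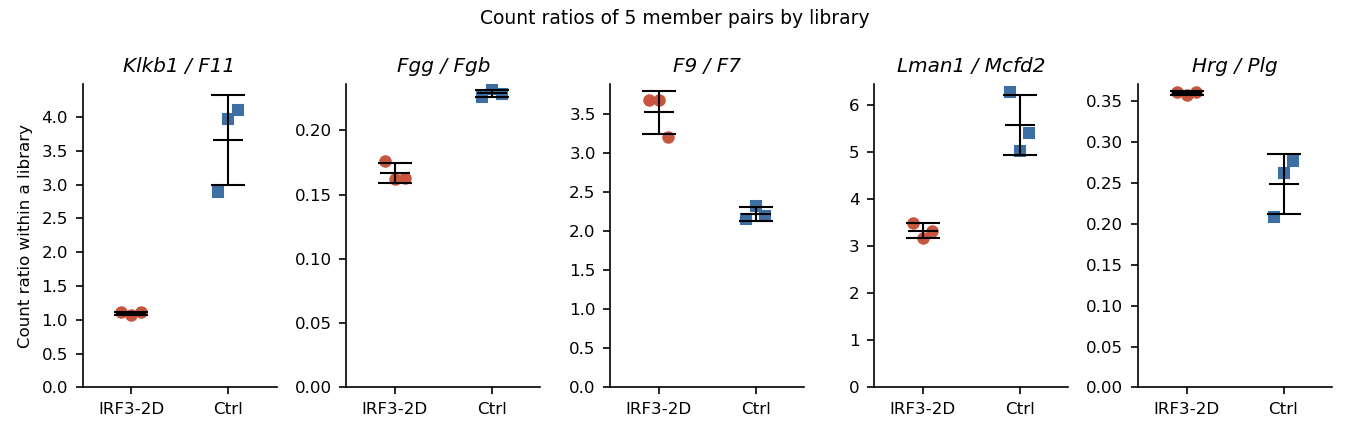
Count ratios of 5 pairs of genes within each library, with circles for IRF3-2D and squares for Ctrl, each beside the mean and SD of its group (n = 3). In all 5 panels the IRF3-2D libraries lie apart from the Ctrl libraries, most widely for Klkb1 over F11 (1.07 to 1.11 in IRF3-2D, 2.89 to 4.10 in Ctrl).

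Fibrinogen is built from the products of Fgg, Fga and Fgb, which lie together on chromosome 3 between 83007724 and 83049863, and it is a classic acute phase protein. Of the 3 genes Fgg was called lower with TMM (13.1% of all tested genes), and Fga and Fgb were not called. Fgg, which encodes the gamma chain, had 938.0, 983.2 and 780.7 CPM in IRF3-2D, against 1872, 1534 and 1341 CPM in Ctrl. The groups did not overlap, and the log2 fold change was -0.81 (SE 0.15, edgeR adjusted p = 0.00756), while with library totals alone it was -0.36 and not called (edgeR adjusted p = 0.117). Fgb, which encodes the beta chain and has 1 annotated transcript, had 5336, 6053 and 4790 CPM in IRF3-2D and 8300, 6605 and 5885 CPM in Ctrl. IRF3-2D replicate 2 lay above Ctrl replicate 3, and the log2 fold change of -0.36 (SE 0.15) was not called (edgeR adjusted p = 0.122), although DESeq2 called it (adjusted p = 0.0291). Fga had 90.7, 86.1 and 84.4 CPM in IRF3-2D and 139.2, 86.6 and 97.6 CPM in Ctrl, a log2 fold change of -0.31 (95% interval -0.71 to 0.098, edgeR adjusted p = 0.235). Fgg over Fgb was 0.176, 0.162 and 0.163 in IRF3-2D, against 0.226, 0.232 and 0.228 in Ctrl, so the gamma chain transcripts were lower relative to those of the beta chain in every IRF3-2D library. Fga over Fgb overlapped between the groups, at 0.0170, 0.0142 and 0.0176 in IRF3-2D and 0.0168, 0.0131 and 0.0166 in Ctrl.

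The windows before the starts of the fibrinogen genes are shown with the same marking, since the 3 chains form 1 protein and only Fgg was called with TMM. They lie at chr3:83007474-83007723, plus strand for Fgg, chr3:83025903-83026152, plus strand for Fga and chr3:83049864-83050113, minus strand for Fgb.
Fgg: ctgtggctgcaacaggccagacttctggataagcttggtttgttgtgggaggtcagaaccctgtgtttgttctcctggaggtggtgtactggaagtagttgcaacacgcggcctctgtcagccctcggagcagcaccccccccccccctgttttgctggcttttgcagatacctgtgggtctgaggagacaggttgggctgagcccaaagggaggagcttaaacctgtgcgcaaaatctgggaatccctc
Fga: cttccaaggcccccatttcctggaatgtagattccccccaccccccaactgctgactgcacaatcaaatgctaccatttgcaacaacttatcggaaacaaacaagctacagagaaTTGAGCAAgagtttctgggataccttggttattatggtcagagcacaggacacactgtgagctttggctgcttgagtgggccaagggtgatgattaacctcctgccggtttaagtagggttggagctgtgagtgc
Fgb: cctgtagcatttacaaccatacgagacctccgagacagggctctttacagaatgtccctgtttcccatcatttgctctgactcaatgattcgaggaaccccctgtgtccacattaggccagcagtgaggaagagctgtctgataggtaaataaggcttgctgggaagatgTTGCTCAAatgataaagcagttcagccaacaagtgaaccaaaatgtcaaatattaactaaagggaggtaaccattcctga
Fga and Fgb each hold a C/EBP match, 135 and 80 bases before the start. The HNF1 motif GTTAAT, a motif of a hepatocyte factor, also matched in Fga and Fgb, 43 and 29 bases before the start, and is not in capitals. Neither motif matched in the Fgg window. Whether these motifs have a part in the levels of the 3 genes was not tested, and Klkb1, also called lower, holds a C/EBP match.

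Factor XIII cross-links fibrin. F13b, which encodes its carrier subunit, made in hepatocytes, had 425.8, 427.8 and 426.6 CPM in IRF3-2D and 345.2, 394.4 and 370.1 CPM in Ctrl. Every IRF3-2D library was above every Ctrl library, yet the log2 fold change of 0.21 (SE 0.083) was not called with TMM (edgeR adjusted p = 0.115) and was with library totals alone (0.66, edgeR adjusted p = 0.00088). F13a1, which encodes the catalytic subunit, made in macrophages and megakaryocytes, had 12, 39 and 7 counts in IRF3-2D and 7, 2 and 3 in Ctrl and did not pass the filter. With no filter its edgeR adjusted p was 0.189. Of 12 listed Kupffer cell and macrophage markers 11 were tested. With TMM 4 were called higher and none lower (13.2% and 13.1% of all tested genes). On library totals alone 8 were called higher and none lower (41.7% and 5.29% of all tested genes). Their summed levels were 924.1 to 1255 CPM in IRF3-2D and 514.4 to 612.3 CPM in Ctrl, with Cd68 at 2 counts or fewer in every library. Of these sums Mpeg1 made up 439.3 to 560.9 CPM in IRF3-2D and 103.2 to 162.6 CPM in Ctrl. Of 5 monocyte markers with a row 2 were tested. With TMM 1 was called higher (13.2% of all tested genes), as on library totals alone (41.7%), and none lower. The summed levels of the 5 stood at 3.54 to 20.3 CPM in IRF3-2D and 2.19 to 4.0 CPM in Ctrl. The 1 called, Ly6c2, had 74, 102 and 27 counts in IRF3-2D and 8, 3 and 9 in Ctrl. It passed the filter on low counts only through the IRF3-2D libraries, so nothing is drawn from its call. The part of macrophages and monocytes in the F13a1 counts was not tested. In such bulk samples more cells of a type and more RNA per cell cannot be told apart, nor can fewer cells and less RNA per cell.

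Of the large cofactors F5, F8 and Vwf none was called with TMM. F5, which encodes factor V, the cofactor of factor X (chromosome 1, 164151838 to 164220277, plus strand), had 868.4, 771.7 and 817.2 CPM in IRF3-2D and 922.1, 1003 and 995.1 CPM in Ctrl. The groups did not overlap, but the log2 fold change of -0.25 (95% interval -0.45 to -0.047) did not pass (edgeR adjusted p = 0.0727), DESeq2 called it lower (adjusted p = 0.00433), and with library totals alone it was 0.21. F8, the cofactor gene affected in haemophilia A, had 32.2, 37.4 and 26.5 CPM in IRF3-2D and 25.2, 35.2 and 28.1 CPM in Ctrl (log2 fold change 0.12, 95% interval -0.28 to 0.52). Vwf, which encodes the platelet-binding carrier of factor VIII, had 10.4, 13.8 and 7.08 CPM in IRF3-2D and 7.68, 9.42 and 11.4 CPM in Ctrl (log2 fold change 0.13, 95% interval -0.52 to 0.79).

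Factors V and VIII leave the endoplasmic reticulum through a cargo receptor made of the products of Lman1 and Mcfd2. Lman1 was called lower with TMM and Mcfd2 was not called. Lman1 had 172.3, 187.8 and 195.6 CPM in IRF3-2D, against 285.2, 310.8 and 280.4 CPM in Ctrl, a log2 fold change of -0.66 (SE 0.090, edgeR adjusted p = 0.00236). That call ended on library totals alone (log2 fold change -0.20, edgeR adjusted p = 0.0973). Mcfd2 had 49.2, 59.0 and 58.8 CPM in IRF3-2D and 45.3, 61.7 and 51.8 CPM in Ctrl (log2 fold change 0.073, 95% interval -0.24 to 0.39), and it was called higher with library totals alone (0.53, edgeR adjusted p = 0.0113). Lman1 over Mcfd2 was 3.5, 3.18 and 3.33 in IRF3-2D and 6.29, 5.04 and 5.41 in Ctrl, with no overlap. Lman1 has 9 and Mcfd2 has 7 annotated transcripts.

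Fibrinolysis turns on plasminogen. Plg, which encodes it (chromosome 17, 12378608 to 12419385, plus strand), had 2459, 2394 and 2703 CPM in IRF3-2D, against 3495, 3589 and 3386 CPM in Ctrl. Its groups did not overlap, and the log2 fold change was -0.47 (SE 0.083, edgeR adjusted p = 0.00671), but -0.018 with library totals alone (edgeR adjusted p = 0.851). Slc22a3 overlaps Plg on the other strand, as Fundc2 does F8, and the strand setting of the counting is not stated. Hrg, which encodes a plasma glycoprotein that binds plasminogen and heparin, had 891.2, 857.7 and 978.6 CPM in IRF3-2D and 727.2, 941.8 and 937.3 CPM in Ctrl, with overlapping groups (log2 fold change 0.066, 95% interval -0.23 to 0.36). Hrg was called higher on library totals alone (0.52, edgeR adjusted p = 0.00624). Hrg over Plg was 0.362, 0.358 and 0.362 in IRF3-2D and 0.208, 0.262 and 0.277 in Ctrl. Cpb2, which encodes the carboxypeptidase TAFI that protects fibrin from plasmin, had 432.3, 407.8 and 369.8 CPM in IRF3-2D and 527.5, 530.7 and 449.1 CPM in Ctrl. Its log2 fold change of -0.32 missed the threshold (edgeR adjusted p = 0.0654) and was called with DESeq2 (adjusted p = 0.00529) and with RLE scaling in edgeR (0.0478).

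Plgrkt, which encodes a plasminogen receptor of the cell surface, was the 1 member called higher with TMM. It had 122, 96 and 104 counts in IRF3-2D libraries, against 34, 50 and 43 in Ctrl libraries, and 7.89, 6.50 and 6.82 CPM in IRF3-2D against 2.78, 4.21 and 3.36 CPM in Ctrl. All IRF3-2D values were above all Ctrl values, and the log2 fold change was 1.03 (SE 0.25, edgeR adjusted p = 0.0225) and 1.49 with library totals alone. The call ended without Ctrl replicate 3 or any 1 of the IRF3-2D libraries (edgeR adjusted p = 0.0537 to 0.0834, log2 fold change 0.95 to 1.09). Plgrkt (chromosome 19, 29348599 to 29367390, minus strand) and Cd274 (29367455 to 29388095, plus strand), which encodes the immune checkpoint ligand PD-L1, lie head to head with 64 bases between them in GENCODE M21. In RefSeq the starts lie farther apart. There the 250 bases before the start are at 29361872 to 29362121 for Plgrkt and at 29367188 to 29367437 for Cd274. Which Plgrkt start is used in these livers was not tested. Cd274 had 254, 263 and 143 counts in IRF3-2D and 37, 30 and 33 in Ctrl (log2 fold change 2.42, SE 0.29, edgeR adjusted p = 0.00136). Plgrkt shares none of its 31-base words with another gene, and it has 10 annotated transcripts.

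The endothelial anticoagulants and plasminogen activators showed no call with TMM. Thbd, which encodes thrombomodulin and has 1 annotated transcript, had 60.9, 57.9 and 51.9 CPM in IRF3-2D and 36.8, 48.5 and 64.9 CPM in Ctrl (log2 fold change 0.18, 95% interval -0.28 to 0.64). Tfpi, which encodes the inhibitor of the tissue factor pathway, had 15.5, 17.9 and 10.6 CPM in IRF3-2D and 15.2, 13.1 and 8.75 CPM in Ctrl (log2 fold change 0.25, 95% interval -0.38 to 0.88). The activators had few counts. Plat, which encodes tissue plasminogen activator, had 44, 45 and 19 counts in IRF3-2D and 21 in each Ctrl library, and Plau, which encodes urokinase, had 17, 32 and 15 in IRF3-2D and 20, 13 and 15 in Ctrl. The 95% intervals of their log2 fold changes were -0.55 to 1.5 for Plat and -0.98 to 1.23 for Plau. F8 and Thbd were called higher on library totals alone (41.7% of all tested genes).

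Endothelial markers were set beside these members. Of 14 listed endothelial markers 13 had a row and 11 were tested. With TMM 5 were called lower and none higher (13.1% and 13.2% of all tested genes). With library totals alone 1 was higher and none lower (41.7% and 5.29% of all tested genes). Their summed level was 364.8 to 484.6 CPM in IRF3-2D and 555.2 to 573.5 CPM in Ctrl, and Stab1 was at 4 counts or fewer in every library. F8, Vwf, Thbd and Tfpi were not called lower in any fit. Whether the markers' level has a part in the values of these 4 genes was not tested. Of 12 hepatocyte markers 11 were tested, 7 called lower and 3 higher with TMM (13.1% and 13.2% of all tested genes). With library totals alone 3 were lower and 3 higher (5.29% and 41.7% of all tested genes). Their summed levels were 87790 to 99960 CPM in IRF3-2D and 147900 to 201000 CPM in Ctrl, in which Alb has the main share. Platelet markers (2 of 8 tested) summed to 3.87 to 6.16 CPM in IRF3-2D and 4.04 to 7.27 CPM in Ctrl, and stellate cell markers (7 of 8 tested, with Pdgfrb at 0) to 230.4 to 284.1 CPM in IRF3-2D and 285.7 to 348.6 CPM in Ctrl. Cholangiocyte markers (5 of 6 tested) summed to 13.4 to 22.8 CPM in IRF3-2D and 16.6 to 35.1 CPM in Ctrl, and neutrophil markers (1 of 6 tested, with Mpo at 0) to 1.62 to 3.79 CPM in IRF3-2D and 0.589 to 3.99 CPM in Ctrl. In these 4 lists 1 stellate marker was called lower with TMM (13.1% of all tested genes) and 1 cholangiocyte marker higher on library totals alone (41.7%).

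**Figure D4:**
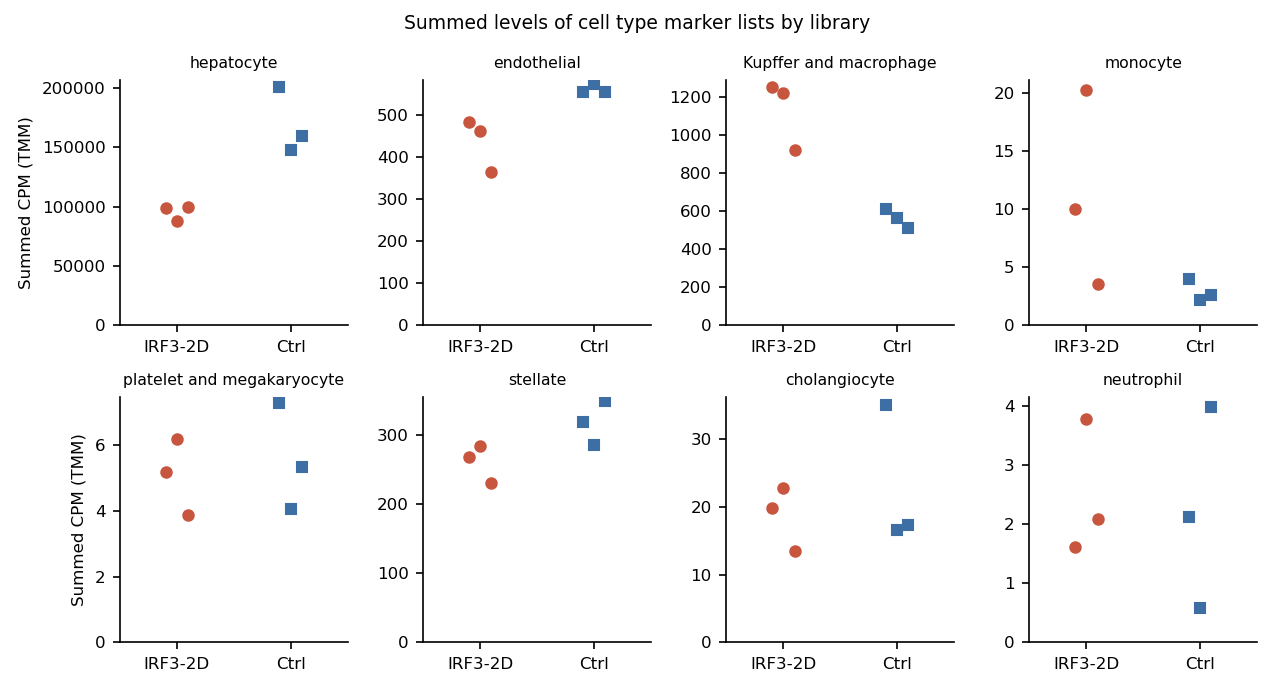
Summed CPM (TMM) of each list of cell type markers in the 3 IRF3-2D libraries (circles) and the 3 Ctrl libraries (squares). Kupffer cell and macrophage sums are higher in every IRF3-2D library. Hepatocyte, endothelial and, by a narrow gap, stellate cell sums are lower in every IRF3-2D library with this scaling.

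On a per-length scale, the mean CPM per kilobase of the longest coding transcript, Fgb ranked highest of the tested members in both groups, at 1420 in IRF3-2D and 1820 in Ctrl. Plg ranked next (914 in IRF3-2D, 1270 in Ctrl), and Fgg and Hrg changed places, with 517 and 524 in IRF3-2D and 909 and 501 in Ctrl. Klkb1 stood at 46.9 in IRF3-2D and 116 in Ctrl, and F11 at 100 in IRF3-2D and 76.8 in Ctrl. The lowest were Vwf (1.18 in IRF3-2D, 1.08 in Ctrl), Plat (0.943 in IRF3-2D, 0.676 in Ctrl) and Plau (0.605 in IRF3-2D, 0.555 in Ctrl). These levels assume that a row holds the whole gene, which was not tested.

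The other genes of the pathway were inhibitors, plasma cofactors, receptors and clearance receptors, 37 in all. Of the 35 with a row 23 were tested, and 5 were called higher and 6 lower (13.2% and 13.1% of all tested genes), with a median log2 fold change of 0.065. Scaled by totals only, 10 of them were called higher and 1 lower, against 41.7% and 5.29% of all tested genes. Their median was then 0.52, against 0.49 for all tested genes. Serpina5, which encodes the protein C inhibitor, had 41, 27 and 35 counts in IRF3-2D, against 1, 3 and 2 in Ctrl. It is 1 of the 5 called higher with TMM and of the 10 on library totals alone. But it passed the filter on low counts only through the IRF3-2D libraries, so no fold change is given for it. C4bp, which encodes the complement regulator that carries protein S in human plasma, had 116.4, 104.6 and 116.3 CPM in IRF3-2D, against 26.6, 32.4 and 34.7 CPM in Ctrl (log2 fold change 1.85, SE 0.12, edgeR adjusted p = 9.48e-05). C4bp was also called higher with library totals alone and without any 1 library.

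Of the 7 tested protease inhibitors 2 were called higher and 2 lower with TMM (13.2% and 13.1% of all tested genes). On library totals alone 4 were called higher and none lower (41.7% and 5.29% of all tested genes). Both counts of higher calls include Serpina5, which passed the filter only through the IRF3-2D libraries, so nothing is drawn from them. Serpinc1, which encodes antithrombin, had 1316, 1375 and 1508 CPM in IRF3-2D and 1296, 1278 and 1416 CPM in Ctrl (log2 fold change 0.074, 95% interval -0.14 to 0.29), and 0.53 with library totals alone, where it was called higher. Serpind1, which encodes heparin cofactor II, fell to 185.1, 131.6 and 178.4 CPM in IRF3-2D, against 335.7, 270.8 and 253.4 CPM in Ctrl (log2 fold change -0.80, edgeR adjusted p = 0.0126), and was -0.35 and not called with library totals alone. Cpn2, the regulatory subunit gene of the carboxypeptidase that inactivates kinins, had 236.1, 245.9 and 275.3 CPM in IRF3-2D, against 426.5, 522.9 and 452.0 CPM in Ctrl (log2 fold change -0.89, edgeR adjusted p = 0.00161), and it was called lower on both scales. Fgl1, which encodes a fibrinogen-like protein of hepatocytes, had 692.4, 977.9 and 268.2 CPM in IRF3-2D and 289.6, 226.3 and 152.6 CPM in Ctrl. IRF3-2D replicate 3 lay within the Ctrl range, and the call (log2 fold change 1.54, edgeR adjusted p = 0.0457) ended when any 1 library other than that replicate was left out (1.11 to 1.77).

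The remaining 6 calls in that list were small and ended when single libraries were left out. Serpina10, which encodes the protein Z-dependent inhibitor, was called higher (log2 fold change 0.37), and its call ended without any 1 of Ctrl replicates 2 and 3 and IRF3-2D replicates 1 and 2 (0.32 to 0.38). Apoh, which encodes a phospholipid-binding plasma glycoprotein and is also on the hepatocyte marker list, was called higher too (0.36), and its call ended without any 1 of Ctrl replicates 2 and 3 and IRF3-2D replicates 1 and 3 (0.31 to 0.39). Both were also called with library totals alone. Serpinf2, the plasmin inhibitor gene (log2 fold change -0.35), Cpn1, the catalytic partner of Cpn2 (-0.34), Furin, which encodes a proprotein convertase (-0.43) and the asialoglycoprotein receptor gene Asgr2 (-0.44) were called lower and turned to 0.10, 0.11, 0.019 and 0.0098 with library totals alone. Cpn1 lost its call without any 1 of the 6 libraries (-0.38 to -0.26), and Serpinf2 (-0.40 to -0.27) and Furin (-0.48 to -0.36) without any 1 other than IRF3-2D replicate 3. Asgr2 lost it without any 1 of Ctrl replicates 2 and 3 and IRF3-2D replicates 1 and 2 (-0.42 to -0.39).

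**Figure D5:**
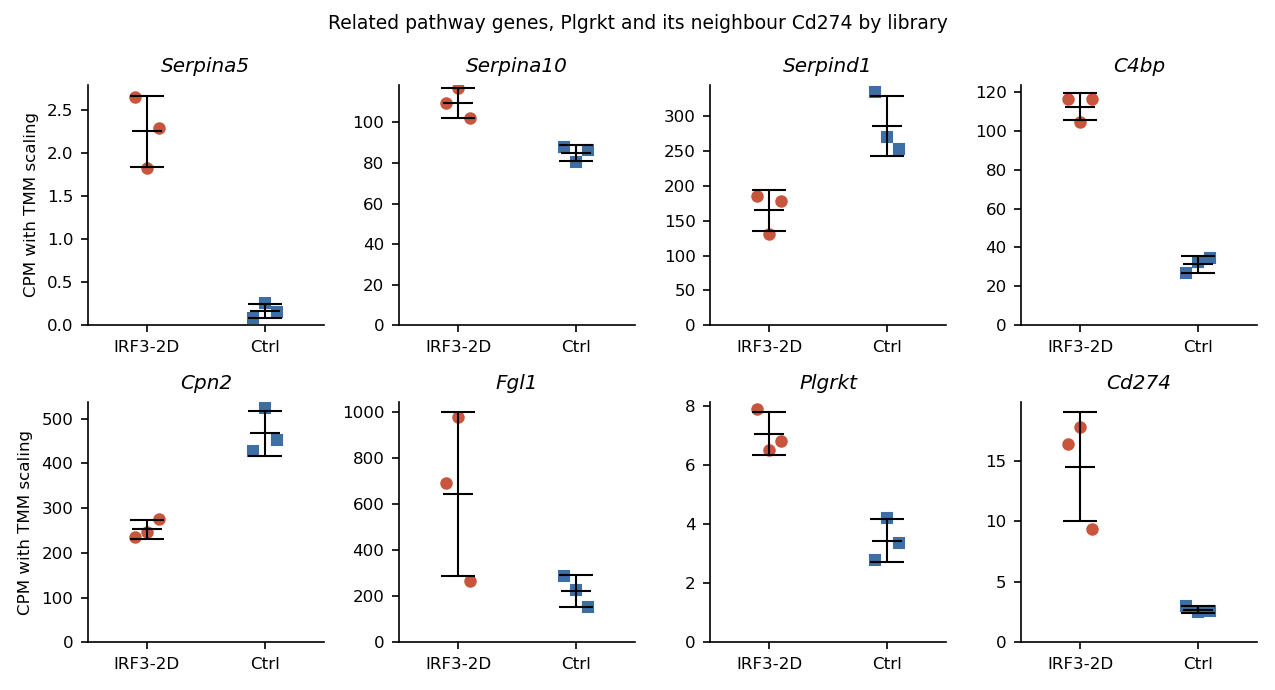
CPM with TMM scaling of 6 related pathway genes, of Plgrkt and of its neighbour Cd274, with circles for the 3 IRF3-2D and squares for the 3 Ctrl libraries beside the mean and SD of each group. Serpina5, Serpina10, C4bp, Plgrkt and Cd274 are higher and Serpind1 and Cpn2 lower in every IRF3-2D library than in any Ctrl library, while Fgl1 overlaps.

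Promoter windows were found in RefSeq for 28 members (30 windows of 250 bases before the start). The C/EBP motif TTGCNNAA matched on either strand in 10 of the 30 windows, those of F9, F11, Fga, Fgb, Ggcx, Hrg, Klkb1, Kng2, Plaur and Procr, against 9.56% of all 32851 windows in the table. Among these 10 genes Ggcx, Klkb1 and Kng2 were called lower with TMM (13.1% of all tested genes). F9, F11, Fga, Fgb and Hrg were not called, and Procr was listed at 0. The interferon-stimulated response element (GAAA, any 2 bases, GAAA), a motif that IRF factors bind, matched in 0 of the 30 windows and in 2.98% of all windows. The HNF1 motif GTTAAT matched in the windows of F13b, Fga, Fgb and Proz and in 6.43% of all windows. The STAT motif TTCNNNGAA matched in those of F9, Fga, Fgb and Pros1 and in 7.02% of all, and the HNF4 motif CAAAGTCCA matched in none and in 0.384% of all. A match describes these letters in these windows only, and the motifs can overlap one another.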

How the data were processed

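RNA was taken from 6 snap-frozen mouse liver samples, 3 per group, and libraries were made after poly-A selection with a strand-specific kit, as the labels' protocols state. The deposited table holds estimated counts for each gene and library as whole numbers, without normalization. The submitters' processing notes list Salmon 1.2.1, GRCm38 and mm10 without a role. Annotation, strand setting, rounding and filters of the counting: not given in the sources used here. The labels do not say that replicates came from separate mice, so the spread behind each p-value is that between samples and may be technical. The counts of replicates differed beyond sampling noise (chi-square per degree of freedom 18.9 to 110). All columns of the table were used.

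The members, gene lists and tests were chosen with earlier results of these data known. All members are named, with values in every sample for those called, those at an adjusted p under 0.2 and those of fibrinogen, the contact system and the vitamin K-dependent group, and related genes are named where called. Ratios, Cd274 and the uncalled related genes named were chosen after their values were seen.

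Genes were filtered with filterByExpr of edgeR 4.0.16 (R 4.3.3), and IRF3-2D was compared with Ctrl over the whole table with the quasi-likelihood test of edgeR, TMM factors and no covariate. P-values were adjusted by Benjamini-Hochberg over all 10802 tested genes, with a threshold of 0.05. Each standard error is the log2 fold change divided by the root of F. A count of 0 allows up to 3 counts, for counting error only. Alternatives were DESeq2 1.42.0, limma-voom (limma 3.58.1), RLE scaling, library totals alone, no filter, a mean count of at least 50, a replicate block and leaving out each library. Sequence sharing was counted as 31-base words of GENCODE M21 transcripts, and promoters came from RefSeq on GRCm38.p6.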

Additional observations from a re-analysis of the deposited data

How the results depend on the processing

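The main dependence is on scaling. With library totals alone the members called higher went to 8 and those called lower to 2, against 1 and 10 with TMM, and of the related genes 10 were higher and 1 lower, against 5 and 6. On that scale the log2 fold change turned for the members F9 (0.33), F10 (0.31), Pros1 (0.21), Ggcx (0.024), Kng1 (0.16), Kng2 (0.053), F5 (0.21), Fga (0.14), Fgb (0.095) and Cpb2 (0.14). Among related genes called with TMM it turned for Serpinf2 (0.10), Cpn1 (0.11), Furin (0.019) and Asgr2 (0.0098). Among those not called it turned for Mrc1 (0.14), F2rl1 (0.29) and Thpo (0.46). All tested genes then counted 4500 higher and 571 lower, against 1426 and 1418. F10 also turned with limma-voom (0.077) and the replicate block (0.063). When single libraries were left out the members called higher ranged from 0 to 2 and those called lower from 9 to 10, and the related genes from 2 to 4 higher and from 2 to 6 lower. Of the 11074 to 11202 genes tested in those fits 851 to 1312 were called higher and 920 to 1363 lower. Signs turned in that series for F10 (log2 fold change -0.57 to 0.76), F8 (-0.0046 to 0.26), Vwf (-0.12 to 0.34), Mcfd2 (-0.028 to 0.19), Plau (-0.32 to 0.32) and Hrg (-0.049 to 0.12), none of them called. The labels do not say whether replicate numbers pair the samples. Same-numbered libraries correlated at 0.0785, -0.0987 and 0.0815 in their deviations from the group means. IRF3-2D replicates 1 and 3 correlated best with the Ctrl library of the same number, and IRF3-2D replicate 2 with Ctrl replicate 3. Correlations this small, with 3 libraries per group, cannot decide whether samples were paired. With the replicate block 0 members were called higher (Plgrkt, edgeR adjusted p = 0.0643) and 10 lower, against 1038 and 1128 of all 10802 tested genes. DESeq2 called 14 members lower (16% of all tested genes), limma-voom 11 (13.3%) and RLE scaling 12 (13.9%). Each called 1 member higher, against 1493, 1423 and 1300 of all 10802 tested genes. No filter or a mean count of at least 50 left the counts at 10 lower and 1 higher. Of all genes 1259 of 15609 were lower and 1278 higher with no filter. At that mean count 1445 of 8340 were lower and 1411 higher. Members below the filter on low counts were not tested, and Plat and Plau had 13 to 45 counts in a library.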
